A study of Mus musculus with 15 samples.

Results

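Biliary epithelial cells and hepatocytes sorted from livers of mice fed DDC were compared across 13905 of the 24493 genes in the deposited table, which were kept where 3 or more of the series' 15 libraries had a TPM of 1 or higher. The comparison took 6 of those libraries, 3 of biliary cells and 3 of hepatocytes, each assigned by its title. At 4 weeks of age all mice, untreated ones included, had received AAV-TBG-Cre. The TBG promoter of this virus is active in hepatocytes, and its Cre serves to label cells. DDC, a compound mixed into chow that causes porphyria and duct injury, was fed from 5 weeks of age for 4 weeks. Untreated mice had the same virus and no DDC, and their biliary cells and hepatocytes (3 libraries each) were used for comparison. Reprogrammed cells of DDC mice (3 libraries) entered the filter, the scale factors and the shared estimate of spread, and were not compared themselves. Cells were sorted straight from the liver without culture. The sort markers were not stated, and no label said whether replicates came from separate animals, so every p-value reflects the spread between libraries alone, which may be technical.

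Hepatocytes and biliary epithelial cells descend from a common embryonic progenitor. Hepatocytes make plasma proteins, bile acids, urea and glucose and carry out detoxification, and bile leaves them through canaliculi. Biliary cells line the ducts, modify bile through a cyclic AMP and chloride driven secretion, rest on a laminin basement membrane and carry a primary cilium. In injury by DDC, porphyrin plugs obstruct small ducts, ductular cells proliferate, and both cell types are known to alter their expression programs.

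Values are TPM, a library-relative measure per transcript length, divided by 1 scale factor per library (scaled TPM). Log2 differences are biliary minus hepatocyte on the scale of log2(scaled TPM + 1), which understates the difference of genes of low level, and are given with their standard error (SE). A call required that limma's adjusted p was below 0.05 and that the log2 difference was 1 or more in either direction. Read totals are not part of a TPM table, so depth and counting error are unknown. At least 1 TPM was reached by 13386 to 13636 genes in the DDC biliary libraries and by 10751 to 11088 in the DDC hepatocyte libraries. The 10 biliary and 8 hepatocyte defining markers separated the groups in the direction of their labels in all 6 libraries. Hepatocyte library 1 stood apart in its albumin level, with 50615, 104595 and 108580.0 scaled TPM of Alb in hepatocyte libraries 1 to 3. The entry Mir6236, the highest of the table in both groups, took 7.16% to 8.69% of the TPM in biliary and 6.61% to 15.3% in hepatocyte libraries.

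The sequences shown first are promoters of genes on both sides of the comparison: Mmp7, Cxcl2 and Ankrd1, higher in biliary cells, and Alb and Saa1, higher in hepatocytes. Each is the 250 bases before an annotated start, 5′ to 3′ on the gene's strand, from RefSeq on GRCm38.p6. Capitals mark matches, on either strand, to 6 short motifs. The TATA box was searched as TATAAA, the site of AP-1 factors as TGANTCA and the site of C/EBP factors as TTGCNNAA. TEAD sites were searched as GGAATG, the site of Sp1 as GGGCGG, and NF-kB sites by the kappa B consensus. The Mmp7 window (chr9:7691840-7692089, plus strand) held 2 TATA matches, 1 C/EBP match and 1 AP-1 match, the Cxcl2 window (chr5:90903649-90903898, plus strand) 1 NF-kB and 1 Sp1 match, and the Ankrd1 window (chr19:36119845-36120094, minus strand) 2 TEAD matches. The Alb window (chr5:90460620-90460869, plus strand) and the Saa1 window (chr7:46742981-46743230, minus strand) held 1 C/EBP match each. Mmp7 has another annotated start, whose window (chr9:7692091-7692340, plus strand) held no match to these 6 motifs and is not shown.
Mmp7: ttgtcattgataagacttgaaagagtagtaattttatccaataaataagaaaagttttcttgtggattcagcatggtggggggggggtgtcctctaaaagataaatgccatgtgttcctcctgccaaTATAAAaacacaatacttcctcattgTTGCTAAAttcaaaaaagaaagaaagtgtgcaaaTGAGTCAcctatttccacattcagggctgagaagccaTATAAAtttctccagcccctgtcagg
Cxcl2: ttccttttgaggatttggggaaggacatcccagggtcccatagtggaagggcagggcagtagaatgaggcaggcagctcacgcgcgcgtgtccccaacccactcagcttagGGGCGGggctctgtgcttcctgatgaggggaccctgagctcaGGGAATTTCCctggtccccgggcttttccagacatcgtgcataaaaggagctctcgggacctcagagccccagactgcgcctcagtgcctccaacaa
Ankrd1: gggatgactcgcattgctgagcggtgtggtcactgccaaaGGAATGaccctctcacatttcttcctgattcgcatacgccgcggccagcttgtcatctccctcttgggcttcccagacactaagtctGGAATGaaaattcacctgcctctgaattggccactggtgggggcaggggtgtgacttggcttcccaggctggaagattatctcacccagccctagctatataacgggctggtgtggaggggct
Alb: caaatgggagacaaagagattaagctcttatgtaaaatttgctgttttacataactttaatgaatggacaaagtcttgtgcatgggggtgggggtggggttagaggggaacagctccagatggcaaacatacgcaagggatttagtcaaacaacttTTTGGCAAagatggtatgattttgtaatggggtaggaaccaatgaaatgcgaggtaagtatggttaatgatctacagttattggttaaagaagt
Saa1: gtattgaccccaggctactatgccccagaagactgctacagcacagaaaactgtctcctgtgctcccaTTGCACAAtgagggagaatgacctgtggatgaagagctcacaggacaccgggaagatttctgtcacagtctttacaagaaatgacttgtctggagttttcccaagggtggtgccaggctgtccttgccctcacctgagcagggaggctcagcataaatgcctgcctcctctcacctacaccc

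Such windows were available for 10829 of the tested genes, as 13750 promoters. The consensus of HNF1 was held by 1.24% of promoters of genes lower in biliary cells, by 0.21% of those higher and by 0.327% of all. For the letters CAAAGTCCA of HNF4 the shares were 1.09%, 0.245% and 0.444%, and for C/EBP 10.8%, 6.83% and 7.9%. HNF1, HNF4 and C/EBP are the factor families known for driving hepatocyte genes. The NF-kB consensus was held by 0.794% of the lower, 1.72% of the higher and 1.08% of all promoters. Shares for TEAD were 12.5%, 12.6% and 11%, and for AP-1 6.2%, 5.71% and 4.84%. Base composition differed along with these sets, with a median of 11 CpG per window for lower genes, 13 for higher genes and 15 for all. A letter match is a description of the window, and its part in expression was not tested.

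Under DDC, 2811 genes were higher in biliary cells (20.2% of those tested) and 1999 were lower (14.4%). The libraries of the groups did not overlap for 2771 and 1925 of these, against 36.4% and 28.2% of all tested genes that did not overlap in the same directions. Differences toward biliary cells reached further. With calls limited to genes whose higher group averaged 10 scaled TPM or more, 517 of 1425 higher genes and 3 of 1807 lower genes differed by more than 3 on the log2 scale. The 90th percentile of the size was 4.55 for the former and the corresponding difference was -2.64 for the latter. Where libraries did not overlap, 519 of 1399 higher genes differed over 10-fold in their means, and 4 of 1759 lower genes did so.

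The split of calls depended on the scaling. The median log2 difference of all genes tested was 0.14 here, 1.06 in TPM as deposited and -0.12 under quantile normalization, and 58.4%, 91.7% and 46.4% of calls respectively were higher in biliary cells. In TPM as deposited 7142 of the 13905 tested genes were called higher and 645 lower, and under quantile normalization 1918 and 2216. Counts given below for these scalings stand against those totals. Genes that reached the TPM filter only with the DDC biliary libraries numbered 434 (93 called higher, 1 lower), and those that reached it only with the DDC hepatocyte libraries 53 (0 higher, 12 lower). At the edge of that filter, Il1bos and Gm7008 lay just inside and Impg2 and 1810012K16Rik just outside.

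**Figure D1:**
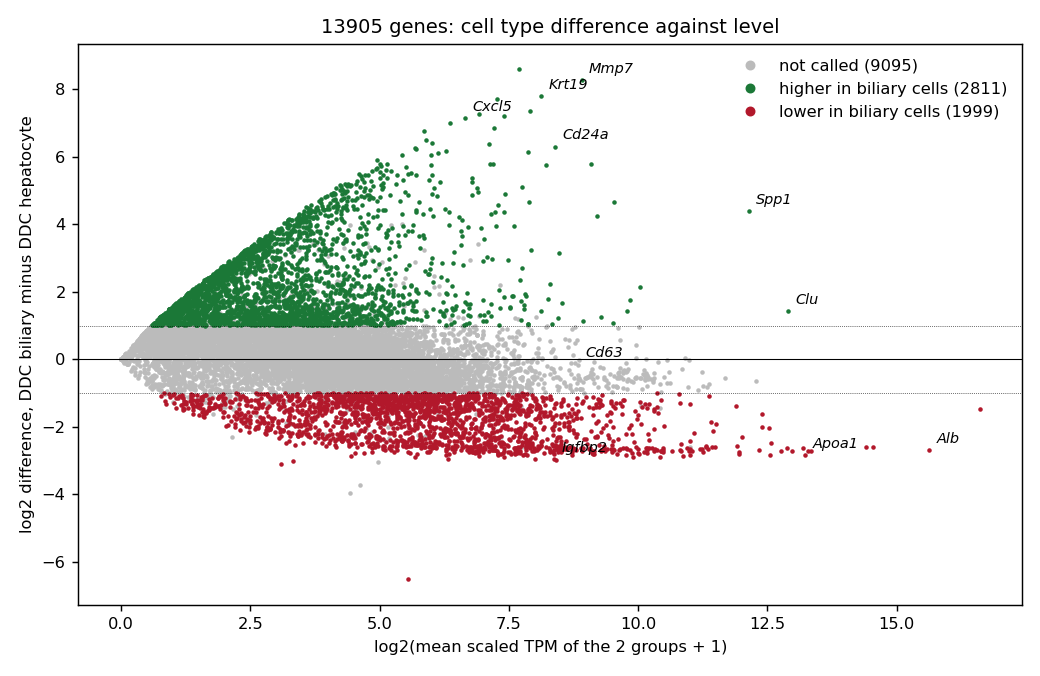
Log2 difference (DDC biliary minus DDC hepatocyte, y axis) against the log2 mean level of the 2 groups (x axis) for 13905 genes, with 2811 called higher in green and 1999 called lower in red. Higher genes spread up to 8.58, whereas nearly all abundant lower genes lie above -3.

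Of the 19 biliary epithelial markers, 18 were higher in DDC biliary cells and 0 lower, with a median log2 difference of 4.86. Krt19 (chr11:100140810-100145926 on GRCm38, as for all positions here), a keratin of duct epithelium, stood at 465, 533 and 672 scaled TPM in biliary libraries 1 to 3 and at 1.41, 1.64 and 1.45 in hepatocyte libraries 1 to 3. The mean was 372-fold higher in biliary cells with no overlap, and the difference was 7.79 ± 0.22 (SE, n = 3 per group, adjusted p = 5.48e-11). Its partner Krt7 was at 206, 327 and 384 against 0.484, 0.508 and 0.295 (7.70 ± 0.22, adjusted p = 5.48e-11). The adhesion molecule Epcam was even across replicates, at 461, 441 and 528 in biliary and 1.92, 1.87 and 1.96 in hepatocyte libraries. That gave a difference of 7.35 ± 0.12 with the smallest error among these markers. Muc1, a membrane mucin of the duct surface, varied more among biliary libraries, with 145, 59.99 and 96.6, against 0.325, 0.1703 and 0.263 in hepatocytes (6.25 ± 0.33, adjusted p = 6.33e-09). None of these marker values overlapped between the groups.

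Spp1, which encodes osteopontin, was among the most abundant biliary transcripts, at 11245, 6214 and 8432, and was also present in the DDC hepatocyte libraries at 440.4, 253 and 563. Its difference was 4.40 ± 0.37 (adjusted p = 5.68e-07), smaller than that of Krt19 at a far higher level. Cd24a, a surface glycoprotein, was at 663 ± 71.6 against 7.58 ± 2.06 (means ± SD, n = 3 each), and the secretin receptor gene Sctr at 32.99 ± 12.4 against 0.242 ± 0.141. Prom1, the stem cell marker CD133, had the smallest called difference of the list, with 79.1, 54.4 and 68.3 in biliary cells and 7.91, 28.6 and 34.8 in hepatocytes (1.67 ± 0.39, adjusted p = 0.00209). The only marker not called was Tm4sf4, a tetraspan protein, at 937, 625 and 699 in biliary and 838, 908 and 1207 in hepatocyte libraries. Its hepatocyte values reached those of the biliary cells (-0.39 ± 0.19, adjusted p = 0.0837).

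Of 7 simple epithelial keratins, 4 were higher and 0 lower. Besides Krt19 and Krt7 these were Krt23 (53.8 ± 5.45 against 6.97 ± 8.201) and Krt80 (7.57 ± 3.34 against 0.0663 ± 0.0794). Krt8 and Krt18, which hepatocytes express as their own keratin pair, were abundant in both groups. Krt8 stood at 1594, 1520.5 and 1751 in biliary and 2728, 1239 and 2279 in hepatocyte libraries. The groups overlapped, and the difference of -0.29 ± 0.28 was not called (adjusted p = 0.384), while under quantile normalization it was 1.29 in the other direction. Krt18 overlapped likewise, at 1278 ± 96.3 and 1393 ± 405. Both other scalings, TPM as deposited and quantile normalization, called 6 of the 7 higher.

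**Figure D2:**
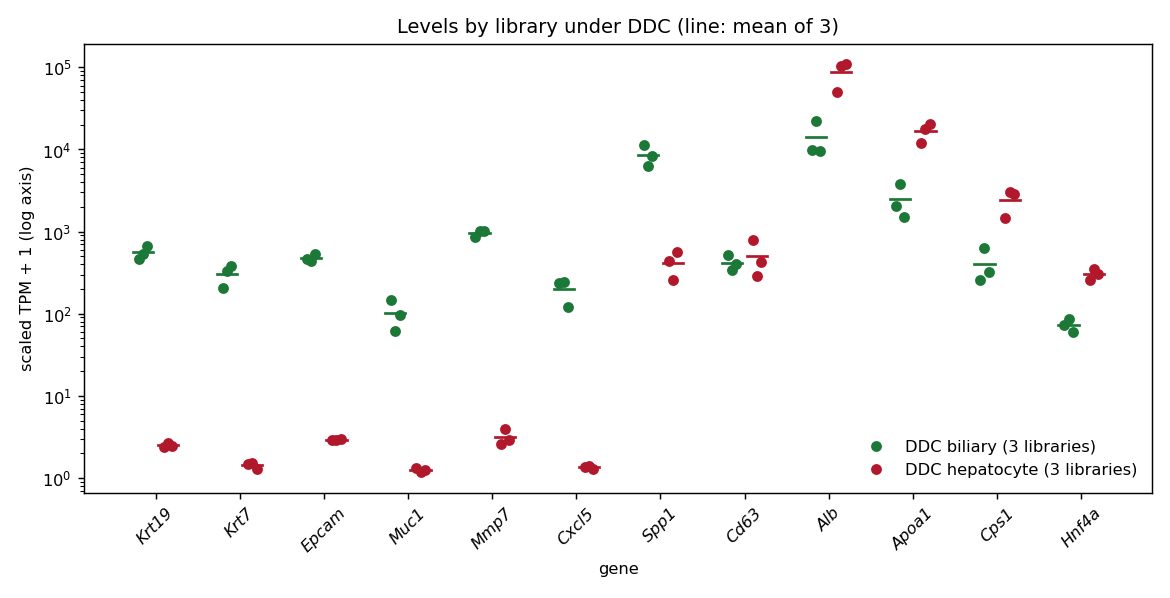
Scaled TPM + 1 on a log axis in each of the 3 DDC biliary (green) and 3 DDC hepatocyte (red) libraries for 12 genes, with a line at each mean. Biliary markers differ by orders of magnitude, Cd63 overlaps between the groups, and hepatocyte genes such as Alb differ by less.

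Transcription factors of biliary and general epithelium were mostly higher, with 12 of 17 tested genes higher and 1 lower (18 listed, median 2.21). The ETS factor Ehf had 141, 123 and 148 against 1.297, 0.661 and 1.13, a difference of 6.10 ± 0.16 (adjusted p = 3.69e-11). The zinc finger factor Klf5 and the grainyhead factor Grhl2 were near 0 in hepatocytes, with means of 0.0455 ± 0.04601 and 0.0188 ± 0.0213 against 36.1 ± 7.78 and 15.7 ± 2.202. Sox9, the classical duct and progenitor factor, was nearly constant in biliary cells at 97.1, 104 and 94.4. In hepatocytes it was lower but present at 11.3, 5.56 and 12.2, and the difference was 3.28 ± 0.22 (adjusted p = 7.39e-08). Nr2f6 was the member that was lower (-1.09 ± 0.14, adjusted p = 1.47e-05). That call was lost at -0.99 without hepatocyte library 3, and in TPM as deposited the difference was 0.0021.

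The secretory apparatus of the duct was expressed on the biliary side, with 11 of 15 tested channel and transporter genes higher and 0 lower (18 listed, median 2.69). Cftr, the cyclic AMP gated chloride channel, was at 69.5, 30.4 and 45.1 against 0.233, 0.0673 and 0.141, without overlap (5.35 ± 0.35, adjusted p = 4.57e-08). Ano1, a calcium gated chloride channel, was at 70.1, 51.7 and 82.9 against 0, 0.375 and 0.363 (5.79 ± 0.19, adjusted p = 1.38e-10). The potassium channel Kcnn4 (5.58), the glucose transporter Slc5a1 (4.40) and the sodium pump subunit Atp1b1 (2.69, at 371 ± 81.2 against 56.2 ± 9.52) were further called members. The chloride and bicarbonate exchanger Slc4a2 was not called, at 27.9 ± 0.724 and 23.9 ± 1.14.

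Of 14 mucin and trefoil genes listed, 4 were tested. Muc1, Muc20 and Tff2 were higher and Tff3 was lower. Tff2, a trefoil peptide that protects mucosa, was at 68.9, 31.2 and 49.5 in biliary cells and listed at 0, 0 and 2.04 in hepatocytes (5.06 ± 0.48, adjusted p = 1.48e-06). Tff3 ran the other way, at 14.03, 8.22 and 3.33 against 43.9, 42.9 and 45.8 (-2.42 ± 0.56, adjusted p = 0.00216). Among 20 primary cilium and polycystic genes 13 were higher and 0 lower (median 1.37), which became 5 higher under quantile normalization. Pkhd1, the gene of recessive polycystic disease, was at 58.6, 38.1 and 49.4 against 3.29, 2.16 and 1.81 (3.87 ± 0.27). The cilium motor subunit Kif3a was at 18.4 ± 1.84 against 2.595 ± 0.453, and Pkd2, a cilium calcium channel, at 46.2 ± 5.59 against 12.3 ± 1.81.

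Of 25 junction genes, 12 were higher and 3 lower (median 0.91). In TPM as deposited 20 were higher and 1 lower, where 7142 and 645 of all 13905 tested genes were. Among the claudins, which set the tightness of the paracellular seal, Cldn4 was at 264, 439.7 and 546 in biliary cells against 24.9, 4.69 and 9.75, and Cldn6 at 87.5, 104 and 192 against 4.17, 0.918 and 3.71. Cldn7 (4.86), Cldn8 (4.14) and Cldn2 (1.85) were also higher. Cldn1 was higher in hepatocytes, at 108, 116 and 111 against 19.9, 23.1 and 11.5 (-2.61 ± 0.28, adjusted p = 4.54e-06), and Cldn3 was not called at 299 ± 43.4 and 237 ± 27.3, though both other scalings called it higher (1.43 in TPM as deposited and 1.36 under quantile normalization). Of the cadherins, Cdh1 was at 351, 327 and 385 in biliary cells against a mean of 91.7 ± 7.20 (1.94 ± 0.25, adjusted p = 1.87e-05), and Cdh2 at 20.8, 22.9 and 18.9 against 75.98, 63.6 and 65.1 (-1.66 ± 0.09, adjusted p = 9.32e-09). Both cadherins were tight across replicates and did not overlap, and the call of Cdh2 was lost in TPM as deposited (-0.58). Cdh6 was higher in biliary cells at 61.7 ± 11.9 against 0.497 ± 0.0966.

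The matrix and its receptors followed the biliary side. Of 12 integrins 8 were higher and 0 lower (median 2.97), among them Itgb4, the laminin receptor subunit of hemidesmosomes, at 33.2, 42.5 and 48.8 against 0.174, 0.1296 and 0.205, and Itgb6, which can activate latent TGF-beta, at 27.8, 32.97 and 45.8 against 0.0389, 0.118 and 0.145. Itgb1, the shared beta subunit, was present in both groups at 199 ± 17.2 and 143 ± 12.2 and was not called, but the other scalings called it higher (1.58 in TPM as deposited and 1.34 under quantile normalization). Of 19 tested basement membrane genes (20 listed) 15 were higher and 3 lower (median 2.54). Perlecan, Hspg2, was at 32.9, 61.6 and 72.3 against 0.279, 0.848 and 0.518 (5.14 ± 0.27). Col18a1 (139 ± 30.2 against 441 ± 65.2) and the linker nidogen Nid1 (38.3 ± 11.6 against 116 ± 26.1) were higher in hepatocytes. These calls were lost in TPM as deposited (-0.57 for Col18a1 and -0.50 for Nid1), and that of Col18a1 also under quantile normalization (-0.70).

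Mmp7 (chr9:7692090-7699585), the matrilysin whose promoter is shown above, had the largest difference of any protein-coding gene averaging 10 scaled TPM or more in its higher group. It stood at 847, 1016 and 1014 in biliary and 1.57, 2.99 and 1.93 in hepatocyte libraries (8.27 ± 0.17, adjusted p = 6.45e-12). Of 15 tested matrix proteases and inhibitors (18 listed) 10 were higher and 2 lower (median 3.44). The inhibitors Timp2 (125 ± 16.05 against 0.887 ± 0.305) and Timp3 (64.5 ± 10.8 against 0.876 ± 0.0757) were higher along with the urokinase gene Plau, at 24.7, 61.1 and 55.1 against 0, 0.227 and 0.756. The protease inhibitor gene Serpine2 was higher, at 39.9, 44.7 and 45.8 against 0.261, 0.526 and 1.45. Mmp19 was lower (9.103 ± 2.29 against 49.8 ± 12.2).

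Among signalling pathways, Notch controls duct fate through contact between ligand and receptor cells. Of 13 tested Notch genes (18 listed) 8 were higher and 0 lower (median 1.04), against 6 and 2 under quantile normalization (median 0.76). The ligand Jag1, mutated in Alagille syndrome, was at 65.3, 59.6 and 65.5 against 4.22, 4.53 and 2.85 (3.74 ± 0.16, adjusted p = 8.69e-10). The target Hes1 was higher too, but its hepatocyte values spread widely, with 18.9, 48.01 and 89.3 against 112, 161 and 165 (1.70 ± 0.42, adjusted p = 0.00335). The modulator Lfng (2.78), the feedback gene Nrarp (2.70) and the ligand Jag2 (2.63) were also higher.

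YAP and TAZ, coactivators restrained by the Hippo kinases, act through TEAD factors. Of 20 genes of this list 14 were higher and 0 lower (median 1.89). The target Ankrd1 was at 144, 167 and 146 against 0.6598, 1.16 and 1.69 (6.17 ± 0.26, adjusted p = 8.58e-10), and Ctgf, a matricellular protein, at 302, 341 and 344 against 8.88, 17.2 and 6.68 (4.89 ± 0.24, adjusted p = 3.27e-09). Tead2 was at 21.3 ± 3.99 against 0.475 ± 0.315. Cyr61, a relative of Ctgf, was close between the groups, at 283, 340.0 and 293 against 86.1, 215 and 171 (1.05 ± 0.25, adjusted p = 0.00292), and fell under the size threshold without hepatocyte library 1 (0.66) or biliary library 2 (0.97). The transcript of Yap1 itself was not called, at 42.5, 36.6 and 38.4 in biliary and 48.6, 42.9 and 40.7 in hepatocyte libraries (-0.16 ± 0.08, adjusted p = 0.0987).

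Of 17 TGF-beta genes 9 were higher and 1 lower (median 1.26). In TPM as deposited 14 were higher and 0 lower, where 7142 and 645 of all 13905 tested genes were. All 3 ligand genes were higher, with means ± SD of 9.26 ± 2.65 against 1.08 ± 0.201 for Tgfb1, 30.2 ± 2.49 against 3.798 ± 0.437 for Tgfb2 and 22.8 ± 2.42 against 0.184 ± 0.145 for Tgfb3. The latency binding protein genes Ltbp3 (54.8, 60.9 and 76.9 against 0.429, 0.344 and 0.691) and Ltbp2 (34.9, 47.8 and 64.2 against 0.972, 0.3099 and 0.424) did not overlap. The receptor gene Tgfbr2 was not called, with higher values in hepatocytes, 57.7, 54.4 and 45.4 against 27.1, 33.4 and 27.9 (-0.81 ± 0.16, adjusted p = 0.000765). Growth factor genes of the EGF and hepatocyte growth factor families had 3 of 12 tested higher and 2 lower (15 listed), where 20.2% and 14.4% of all tested genes were called in these directions, and their median of -0.19 turned to 0.87 in TPM as deposited. Erbb2 was at 20.1 ± 3.06 against 0.263 ± 0.127, whereas the feedback inhibitor Errfi1 was at 186 ± 61.1 against 601 ± 145, a call lost in TPM as deposited (-0.61) and under quantile normalization (-0.69).

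Signals that act on stellate cells, vessels and macrophages had 7 of 16 tested higher and 4 lower (19 listed, median 0.58). Of all tested genes, 20.2% and 14.4% were called in these directions. In TPM as deposited 10 were higher and 1 lower, where 7142 and 645 of all 13905 tested genes were. The platelet derived growth factors Pdgfd (67.3, 29.7 and 51.7 against 0.359, 0.0976 and 0.377) and Pdgfb (48.3, 47.8 and 81.9 against 4.92, 1.64 and 2.36) were higher, with differences of 5.24 ± 0.33 and 3.96 ± 0.31. Endothelin, Edn1, was at 16.1, 33.6 and 21.5 against 0, 0.359 and 0.0695. The macrophage growth factors Csf1 (66.04 ± 6.65 against 10.6 ± 2.59) and Il34 (14.1 ± 2.905 against 1.14 ± 0.165) were higher as well. Cxcl12 (17.6 ± 4.84 against 75.6 ± 21.8) and Ihh (2.05 ± 1.64 against 12.7 ± 7.81) were higher in hepatocytes, the former no longer called in TPM as deposited (-0.96).

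Chemokines and NF-kB targets were higher in DDC biliary cells, with 17 of 21 tested higher and 0 lower (22 listed, median 1.62). Cxcl5 (chr5:90759298-90761625), which attracts neutrophils, was at 234, 244 and 119.7 against 0.371, 0.386 and 0.2799 (7.15 ± 0.35, adjusted p = 3.28e-09). Ccl20, which attracts cells with the receptor CCR6, varied among the biliary libraries, at 63.7, 15.4 and 28.6 against 0, 0.3703 and 0.239 (4.73 ± 0.54, adjusted p = 7.14e-06). Tnf was even across the biliary libraries, at 28.3, 26.6 and 27.8 against 0.1302, 0.2003 and 0.629, a difference of 4.45 ± 0.13 (adjusted p = 6.32e-11). The neutrophil chemokine Cxcl2, whose promoter holds the NF-kB match, was at 46.7, 65.7 and 40.7 against 2.05, 0.651 and 2.36 (4.31 ± 0.25, adjusted p = 1.88e-08). The adhesion molecule Vcam1 was at 260.0, 255 and 338 against 13.2, 9.49 and 16.4. None of these overlapped between the groups. The most abundant member, lipocalin 2 (Lcn2), did overlap, at 2806, 1697 and 1400.1 in biliary and 1426, 1934 and 2224 in hepatocyte libraries, and was not called (0.04 ± 0.47, adjusted p = 0.947). It was called higher in TPM as deposited (1.15, adjusted p = 0.0286) and under quantile normalization (1.55, adjusted p = 0.00814). Ccl2, the monocyte chemokine, was higher at 364, 279.5 and 384 but was also present in hepatocytes at 106, 31.8 and 85.5.

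Of 10 tested TNF family receptors (11 listed), 5 were higher and 1 lower (median 0.82), against 20.2% and 14.4% of all tested genes. Tnfrsf21 (9.36 ± 3.42 against 0.531 ± 0.393) was among the former, and the death receptor Fas (10.7 ± 3.53 against 32.9 ± 3.30) was the lower one, not called in TPM as deposited (-0.52). Of 8 tested class II antigen presentation genes (10 listed), 6 were higher and 0 lower (median 1.70). The invariant chain gene Cd74 was at 409.6, 271 and 274 against 45.3, 6.51 and 9.11 (4.36 ± 0.54, adjusted p = 1.37e-05), and H2-Ab1 at 19.8 ± 5.04 against 2.28 ± 0.943. Macrophages express class II genes too, and the macrophage markers in these libraries are given next.

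Markers of other liver cells were mostly low in both groups. The summed level of 12 listed Kupffer cell and macrophage markers ran from 85.3 to 190.4 scaled TPM in biliary and from 40.3 to 62.1 in hepatocyte libraries. Of 11 tested, 3 were higher in biliary cells (Csf1r, Lyz2 and C1qc) and 0 lower, against 20.2% and 14.4% of all tested genes. In TPM as deposited 7 were higher, where 7142 of all 13905 tested genes were. The median of 0.73 turned to -0.23 under quantile normalization, where C1qc was not called (0.35). Without biliary library 3 the calls of Lyz2 (0.99) and C1qc (0.76) were lost, and that of C1qc also without hepatocyte library 2, at an adjusted p of 0.0505. Csf1r was at 15.8, 23.6 and 30.7 in biliary and 2.66, 2.08 and 4.07 in hepatocyte libraries. The call of Csf1r held in all 6 runs that left out 1 DDC library (2.40 to 2.86). The defining Kupffer cell gene Clec4f was at 0.483, 0.954 and 3.19 in biliary and 0.684, 0.758 and 1.16 in hepatocyte libraries, and the macrophage gene Adgre1 at 0.582, 0.489 and 1.97 against 0.339, 0.187 and 0.451. None of 10 T and NK cell markers reached the filter, and the B cell genes Ms4a1 and Cd79a were listed at 0 in all 6 libraries. Neutrophil markers (10 listed) summed to 23.8 to 33.1 in biliary and 13.2 to 19.8 in hepatocyte libraries. Of 4 tested, 1 was higher (S100a9) and 0 lower. The S100a9 call was lost without biliary library 1 (0.98), without hepatocyte library 1 (0.84) or 3 (0.94) and under quantile normalization (0.46). Of 3 tested erythroid markers (7 listed) 0 were higher and 1 lower, Alas2, at 3.33, 1.38 and 0.851 against 20.3, 9.87 and 12.9. Endothelial markers summed to 17.9 to 40.1 and 15.4 to 20.2, with 1 of 10 called, Clec4g (1.12), whose call was lost without biliary library 3 (0.79) or hepatocyte library 1 (0.99) or 2 (0.95) and under quantile normalization (0.30). Called endothelial markers numbered 6 higher in TPM as deposited, where 7142 of all 13905 tested genes were. Under quantile normalization 0 endothelial markers were higher and 2 lower.

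Stellate cell and fibroblast markers had 5 of 10 tested higher and 0 lower (14 listed), at sums of 397 to 649 in biliary and 15.8 to 24.4 in hepatocyte libraries. Most of that sum was Rgs5, a G protein regulator, at 380.4, 449 and 557 against 10.7, 2.35 and 6.02. The defining genes were low, with Lrat at 0.102, 0.337 and 1.39 and Pdgfrb at 0.705, 0.519 and 2.07 in biliary libraries. Dcn was highest in biliary library 3, at 3.33, 12.5 and 43.5 against 1.09, 6.44 and 5.81, and was called only without biliary library 1 (2.37) among the runs that left out a library. The other called members were Col1a1, Col1a2, Col3a1 and Lum, and without biliary library 3 none of these 4 was called (differences of 0.70, 0.70, 0.75 and 0.64). Calls were also lost without hepatocyte library 1 for Col3a1 (1.33) and Lum (adjusted p = 0.0915) and without hepatocyte library 2 for Col1a2 (1.11) and Lum (1.10). Under quantile normalization these 4 differed by 0.18, 0.21, 0.53 and 0.16 with no call, and the list had 1 higher and 1 lower. The part of other cells in the biliary values was not tested.

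Of 10 tested mesenchymal and transition genes (14 listed), 1 was higher and 2 were lower, against 20.2% and 14.4% of all tested genes. Their median of 0.38 turned to -0.37 under quantile normalization. Vimentin, Vim, was at 19.2, 34.4 and 46.6 against 15.1, 5.78 and 10.8 (1.58 ± 0.43, adjusted p = 0.00609). Snai2 and Cdh2, a cadherin also counted among the junction genes above, were the lower members, Snai2 at 1.76 ± 1.09 against 9.17 ± 3.81. Fibronectin, Fn1, was at 326 ± 7.31 against 660.3 ± 140.1 and just missed the size threshold (-0.99), which it passed without biliary library 1 (-1.01) or hepatocyte library 1 (-1.04) or 3 (-1.11).

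Annexins and S100 calcium binding proteins had 8 of 18 tested higher and 0 lower (19 listed, median 0.94). In TPM as deposited 14 were higher, where 7142 of all 13905 tested genes were. Anxa3 was at 229, 264 and 364 against 4.02, 3.07 and 5.45 (5.79 ± 0.35, adjusted p = 2.1e-08), S100a14 at 27.3 ± 6.62 against 0.0321 ± 0.0556 and S100a6 at 359 ± 104 against 26.5 ± 20.2. For the next lists, the shares over all tested genes were 20.2% called higher and 14.4% lower. Of 13 tested cytoskeletal tubulins and tropomyosins 4 were higher and 2 lower, whereas both other scalings called 0 lower (8 higher in TPM as deposited and 7 under quantile normalization). Tuba1a was at 118 ± 21.0 against 5.23 ± 4.21. Tubb2a was at 144 ± 19.9 against 384 ± 136, with differences of -0.24 (adjusted p = 0.458) and -0.38 (adjusted p = 0.217) on those scalings. Of 17 tested glycolytic genes 6 were higher and 5 lower, and both other scalings called 0 lower (9 and 6 higher). The hexokinase Hk1 (14.2, 17.6 and 22.2 against 0.2597, 0.212 and 0.1704) and the muscle type pyruvate kinase Pkm (34.7, 43.2 and 60.01 against 3.34, 2.71 and 3.82) were higher in biliary cells. Lactate dehydrogenase Ldha (246 ± 17.8 against 1034 ± 313) was higher in hepatocytes, a call lost on both (-0.92 and -0.91), and Ldhb (31.5 ± 2.32 against 1.91 ± 0.7603) in biliary cells. Gapdh was lower (-1.29), against -0.19 in TPM as deposited and 0.03 under quantile normalization.

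Immediate early genes, which respond within minutes to stimuli, had 10 of 20 higher and 0 lower (median 0.91). Egr1 was at 276, 277 and 346 against 58.9, 97.96 and 87.9 and Fos at 255, 299.7 and 324 against 60.02, 122 and 67.5. Of 17 p53 targets and cell cycle inhibitors 6 were higher and 1 lower, against 20.2% and 14.4% of all tested genes. In TPM as deposited 12 of these were higher and 0 lower, and under quantile normalization 7 and 3. The inhibitor Cdkn2a was at 13.2, 6.86 and 10.8 against 0, 0.213 and 0 (3.36 ± 0.21, adjusted p = 3.63e-08) and Cdkn2b at 19.8, 20.8 and 27.1 against 3.24, 0.475 and 2.01 (3.13 ± 0.34, adjusted p = 4.76e-06). Gdf15 was lower (15.8 ± 1.71 against 48.2 ± 25.6), not so called in TPM as deposited (-0.32). Of 20 cell cycle genes 4 were higher, near the 20.2% of all tested genes called in that direction, and 0 lower. In TPM as deposited 10 were higher, where 7142 of all 13905 tested genes were called higher. Under quantile normalization 5 were higher and 2 lower. Cyclin D2, Ccnd2, was at 61.6, 26.6 and 30.7 against 0.682, 0.0984 and 0.333, whereas cyclin D1, Ccnd1, overlapped, at 198, 114 and 159 against 82.8, 97.9 and 207, and was called higher under both other scalings (1.46, adjusted p = 0.0021, in TPM as deposited and 1.22, adjusted p = 0.00552, under quantile normalization). The other 3 were the replication licensing genes Mcm2, Mcm3 and Mcm6, whose calls were lost without hepatocyte library 2 (0.75, 0.84 and 0.53), and that of Mcm6 also without biliary library 1 or 3. Of 11 tested fetal and progenitor genes (15 listed) 1 was higher and 4 lower, against 20.2% and 14.4% of all tested genes. Their median of -0.27 turned to 0.59 in TPM as deposited, where 3 were higher and 0 lower. The hyaluronan receptor Cd44 was the higher one, at 208, 187 and 249 against 9.02, 2.57 and 4.08 (5.24 ± 0.30, adjusted p = 1.42e-08). The fetal RNA H19 was the largest in the other direction, with a wide spread in hepatocytes, at 107, 11.9 and 18.3 against 9.01, 1.58 and 2.24, and was not called on that scale (-1.83, adjusted p = 0.063).

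On the hepatocyte side, the secreted proteins were lower in biliary libraries as a block. All 24 plasma protein genes and all 28 tested coagulation and complement genes (29 listed) were lower, with medians of -2.63 and -2.65, as were 16 of 17 apolipoprotein and lipid transfer genes (median -2.70). In TPM as deposited the lower calls in these lists were 20, 24 and 16, with medians of -1.53, -1.55 and -1.60. Under quantile normalization they were 16, 25 and 13, with medians of -1.47, -1.76 and -1.55. Albumin, Alb (chr5:90460870-90476602), was at 9939, 22495 and 9606 in biliary libraries and 50615, 104595 and 108580.0 in hepatocyte libraries, 6.27-fold lower in the means (-2.69 ± 0.60, adjusted p = 0.0016). That call was lost under quantile normalization (-0.68, adjusted p = 0.0921), with only the compared groups in the fit (adjusted p = 0.0543) and without the filter on low values (adjusted p = 0.216). The groups did not overlap, and the nearest values were those of biliary library 2 and hepatocyte library 1. Apoa1, the main protein of high density lipoprotein, was at 2074, 3805 and 1514 against 12123, 17739.8 and 20652 (-2.85 ± 0.41, adjusted p = 5.2e-05). The transport protein Trf was at 6869.9 ± 3029 against 40836 ± 13188, not called under quantile normalization (-0.48, adjusted p = 0.251), and the fibrinogen chain Fgb at 1061 ± 518 against 6849 ± 2006. Complement C3 had a smaller difference, at 2830.3, 2996 and 2089.6 against 7399, 10148 and 6741 (-1.61 ± 0.25), which was -0.50 and not called in TPM as deposited and turned to 0.45 under quantile normalization. Members of the Serpina1 family share much of their sequence, so how the quantification divided reads among them is uncertain.

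**Figure D3:**
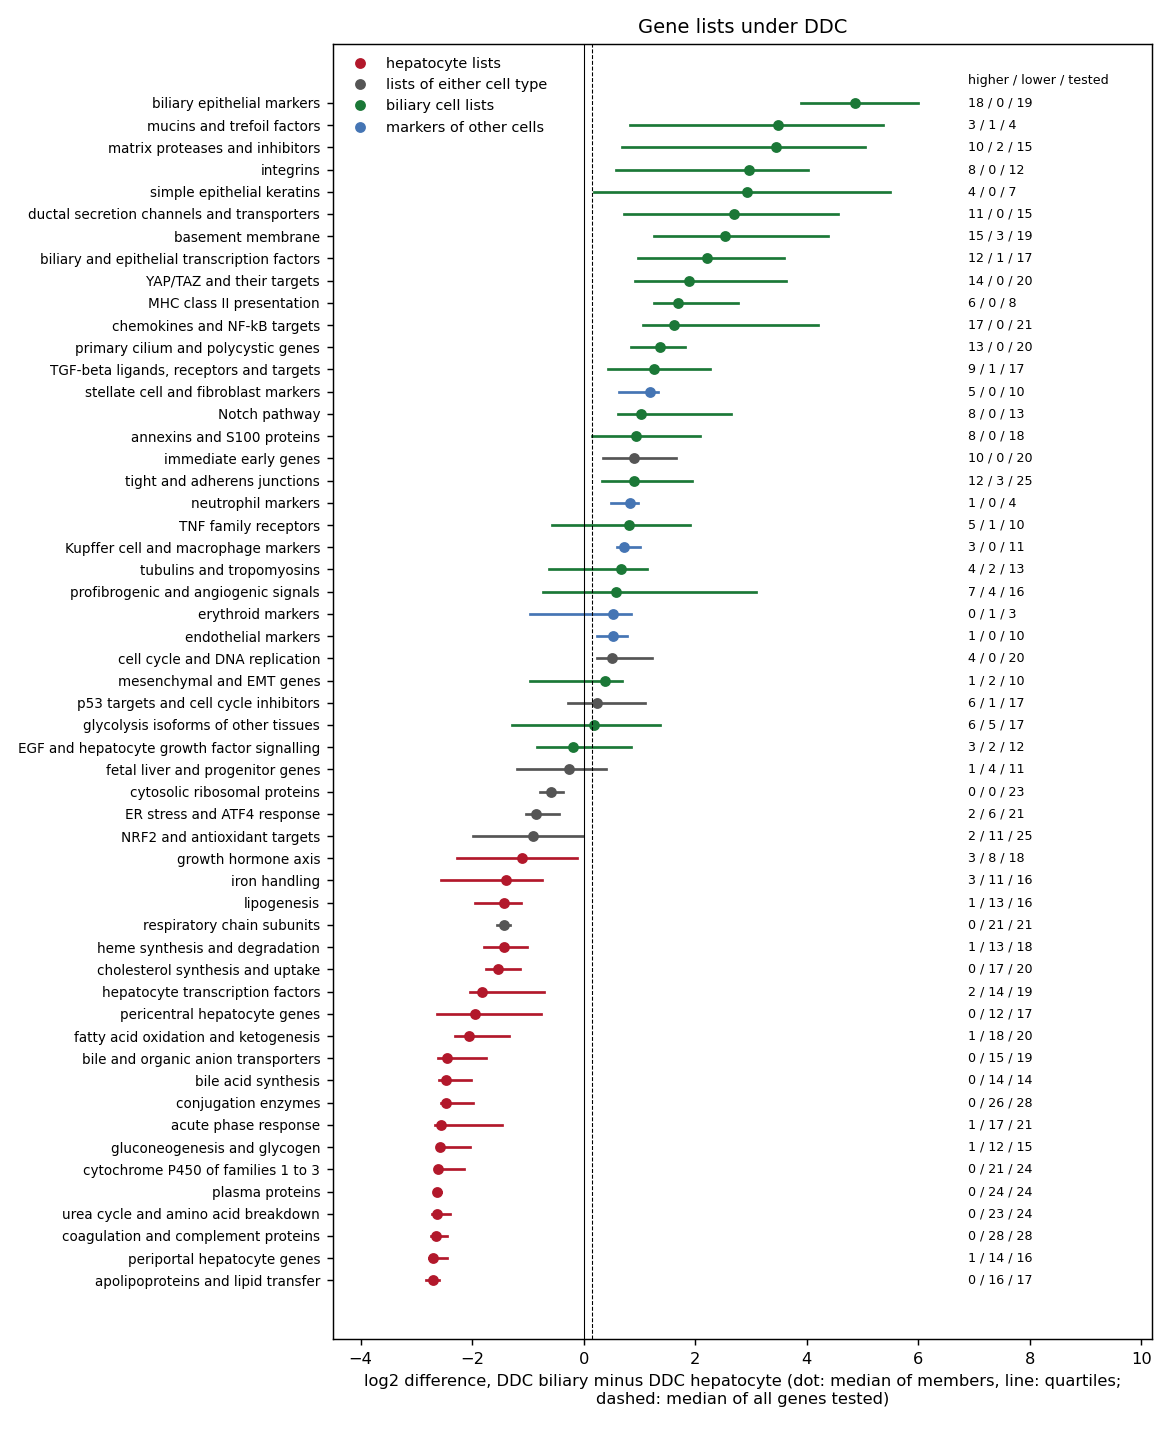
Median (dot) and quartiles (line) of the log2 difference, DDC biliary minus DDC hepatocyte, for the tested members of each list, with the counts called higher, lower and tested at the right and the median of all genes as a dashed line. Lists of hepatocyte secretion sit near -2.6 with narrow quartiles, and biliary lists spread over a wider range.

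Urea cycle and amino acid genes were lower in 23 of 24 cases and higher in 0 (median -2.64). Cps1, the entry step of the urea cycle, was at 254, 637 and 320.0 against 1445, 3065 and 2852 (-2.64 ± 0.48, adjusted p = 0.000347), and Ass1, a later one, at 227, 490.3 and 232 against 1272, 2398 and 3621 (-2.91 ± 0.48, adjusted p = 0.000154). The exception was Glul, glutamine synthetase of the pericentral zone, at 63.7, 66.3 and 68.9 against 123, 44.2 and 28.8. Its hepatocyte values spread on both sides of the biliary ones and it was not called (0.29 ± 0.53). Of 15 genes of gluconeogenesis and glycogen 12 were lower and 1 higher (median -2.58). Cytosolic Pck1 was at 254 ± 191 against 1622 ± 805, while its mitochondrial isoform Pck2 was the higher one, at 15.3, 11.6 and 14.98 against 4.09, 2.09 and 3.62 (1.83 ± 0.25, adjusted p = 2.95e-05).

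Lipid pathways were lower by smaller amounts. Fatty acid oxidation and ketogenesis had 18 of 20 lower and 1 higher (median -2.06), lipogenesis 13 of 16 tested lower and 1 higher (median -1.42), and cholesterol synthesis and uptake 17 of 20 lower and 0 higher (median -1.54). In TPM as deposited the lower calls in these lists were 8, 3 and 1, and quantile normalization called 8 lower in each of the last 2. The desaturase Scd1 was at 339 ± 201 against 1980.5 ± 759.6. Acot1, an acyl-CoA thioesterase, was the higher member of the oxidation list (27.7 ± 12.4 against 7.08 ± 7.27). Fabp1, the liver fatty acid binding protein, was highest in library 1 of both groups, at 878, 53.6 and 79.4 in biliary libraries 1 to 3 and 4557, 239 and 1128 in hepatocyte libraries 1 to 3. Its call (-2.77 ± 1.15, adjusted p = 0.0495) was lost without hepatocyte library 1 (-1.73) or 3 (-2.74) and without biliary library 2 (-2.01) or 3 (-2.29).

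All 14 bile acid synthesis genes were lower (median -2.46), 8 of them also in TPM as deposited. Cyp7a1, the rate-limiting enzyme, varied widely, at 12.3, 53.4 and 10.7 against 65.7, 248 and 113 (-2.60 ± 0.73, adjusted p = 0.00678), while Cyp2c70, which makes muricholic acids, was steadier at 115, 156 and 83.6 against 577, 719 and 899 (-2.64 ± 0.32, adjusted p = 1.27e-05). Of 19 tested bile and organic anion transporters (20 listed) 15 were lower and 0 higher (median -2.45). The uptake carrier Slc10a1 was at 21.5, 112 and 36.96 against 130.5, 524 and 399, and the canalicular phospholipid flippase Abcb4 at 55.01 ± 21.05 against 336 ± 26.5. Of 24 tested cytochrome P450 genes (26 listed) 21 were lower (median -2.61). The libraries of 14 of the 24 did not overlap, where 28.2% of all tested genes did not overlap with biliary libraries lower. In TPM as deposited 12 were lower, where 645 of all 13905 tested genes were. Of 28 conjugation enzymes 26 were lower (median -2.47). Cyp3a11 was at 1825, 1974 and 718 against 8832, 9184 and 8469.8, and Gstm1 at 1938 ± 725 against 10209 ± 450.4, a call lost under quantile normalization (-0.75). Several P450 and Ugt1a genes are near-identical copies or share exons, and their individual values are uncertain.

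Heme and iron genes bear on DDC, which blocks the last step of heme synthesis. Of 18 heme genes 13 were lower and 1 higher (median -1.43), against 4 and 2 with a median of -0.35 in TPM as deposited. Alas1, the rate-limiting enzyme, was at 58.8, 98.1 and 49.3 against 258, 414 and 463 (-2.46 ± 0.38, adjusted p = 0.000101), and the heme exporter Flvcr1 was the higher one (13.3 ± 0.998 against 3.31 ± 1.21). Of 16 iron genes 11 were lower and 3 higher, and both other scalings called 5 lower. Hepcidin, Hamp, was at 1132, 3017 and 1248 against 5207, 13189.7 and 17852 (-2.72 ± 0.66, adjusted p = 0.00282), a call lost under quantile normalization (-0.93, adjusted p = 0.167). The copper oxidase Heph, which aids iron export, was higher at 6.17, 4.77 and 5.03 against 0.0667, 0 and 0.0535 (2.60 ± 0.23, adjusted p = 9.88e-07).

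Of 19 hepatocyte transcription factors 14 were lower and 2 higher (median -1.83), against 6 and 5 with a median of -0.74 in TPM as deposited. Hnf4a, central to hepatocyte identity, was at 71.9, 84.7 and 58.4 against 254, 345 and 303 (-2.06 ± 0.21, adjusted p = 2.72e-06) but at -0.96 under the size threshold in TPM as deposited, and the xenobiotic receptor Nr1i3 at 13.9, 28.7 and 13.4 against 83.3, 162 and 163 (-2.82 ± 0.41, adjusted p = 5.35e-05). Foxa1 was higher in biliary cells, at 22.98, 16.7 and 21.3 against 10.9, 7.88 and 6.19 (1.21 ± 0.21, adjusted p = 0.000212, and 0.98, below the size threshold, under quantile normalization), as was Onecut1 (2.30), whose call was lost without hepatocyte library 3 (1.67, adjusted p = 0.0631). Both zonation lists were lower, periportal genes in 14 of 16 cases with 1 higher (median -2.70) and pericentral genes in 12 of 17 with 0 higher (median -1.95). Periportal Cyp2f2 was at 42.02 ± 23.8 against 282 ± 92.7 and pericentral Cyp2e1 at 399 ± 190.0 against 2465 ± 736.

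The acute phase response, the hepatocyte reply to interleukin 6, had 17 of 21 genes lower and 1 higher (median -2.56). Saa1, whose promoter is shown above, was at 55.2, 66.2 and 42.5 against 331, 323 and 707 (-2.95 ± 0.39, adjusted p = 2.4e-05). The interleukin 1 receptor antagonist Il1rn was the higher one, at 173, 73.4 and 121 against 10.9, 0.629 and 2.097 (4.89 ± 0.60, adjusted p = 1.28e-05). Of 18 growth hormone axis genes 8 were lower and 3 higher, against 14.4% and 20.2% of all tested genes. In TPM as deposited 4 of them were lower and 4 higher. Igfbp2 was at 83.8, 105 and 45.7 against 505, 563 and 682 (-2.95 ± 0.33, adjusted p = 5.91e-06) and Socs2, an inhibitor of growth hormone signalling, was higher at 158, 161 and 181 against 8.84, 46.5 and 29.4 (2.79 ± 0.79, adjusted p = 0.00754). Mup20, a urinary protein gene with near-identical relatives, was likewise highest in library 1 of both groups, at 1772, 94.4 and 105 against 8874, 389.9 and 1139. The groups overlapped, and its difference of -2.60 ± 1.20 (adjusted p = 0.0728) was called without biliary library 1 (-3.98, adjusted p = 0.00643), without hepatocyte library 2 (-3.60, adjusted p = 0.0226) and with sample weights (-2.93, adjusted p = 0.0221).

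Stress and housekeeping lists sat between. Of all tested genes, 14.4% were called lower and 20.2% higher. NRF2 and antioxidant targets had 11 of 25 lower and 2 higher, with a median of -0.91 that turned to 0.18 in TPM as deposited, where 6 were lower and 6 higher. The pentose phosphate enzyme G6pdx was higher at 35.5, 42.1 and 39.3 against 2.73, 3.53 and 5.601 (3.05 ± 0.19, adjusted p = 3.59e-08), and Gsta1 was lower at 245 ± 196 against 1419.6 ± 739. The unfolded protein and ATF4 list had 6 of 21 lower and 2 higher, with a median of -0.86 that turned to 0.22 in TPM as deposited. Atf5 was at 45.6 ± 9.71 against 253 ± 98.2. All 21 respiratory chain subunits were lower here (median -1.43), and none was called in TPM as deposited (median -0.33). No ribosomal protein gene of 23 was called, and their median of -0.59 turned to 0.52 in TPM as deposited and 0.63 under quantile normalization.

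Hepatocyte genes were present in every DDC biliary library at a fraction of their hepatocyte level. The 202 genes used came from the lists of secreted proteins, metabolism other than lipid synthesis, bile acids, transporters and detoxification. They were kept where the DDC hepatocyte mean was 10 scaled TPM or more. That mean is also the divisor, so members of low hepatocyte level are absent. Across these genes, the median level was 17.2%, 24.1% and 11.01% of the DDC hepatocyte mean in biliary libraries 1, 2 and 3. The middle 50% of genes lay between 12.5% and 26.2%, 21.2% and 28.5%, and 9.71% and 13.95%. Set against the hepatocyte library of the same number, the medians were 20.5%, 21.8% and 9.87%, and the corresponding ranges were 18.7% to 24.8%, 21.0% to 24.1%, and 8.66% to 12.9%, narrower than before in libraries 1 and 2. In TPM as deposited the medians against the hepatocyte mean were 37.0%, 48.9% and 26.1%. For the mean of 3 libraries the median was 16.9% (36.1% in TPM as deposited), with Slc22a7 lowest at 12.1% and Abcc4 highest at 151%, and 18.2% in untreated mice. These genes together took at most 15.9% of the TPM in DDC biliary libraries against at least 27.5% in DDC hepatocyte libraries. In the other direction, the 19 biliary markers stood in DDC hepatocyte libraries at a median of 3.15% of their biliary mean (1.51% in TPM as deposited), from 0.140% for Krt7 to 131% for Tm4sf4. In such bulk samples, hepatocytes or their RNA among the sorted cells and low expression in biliary cells cannot be told apart, nor can fewer cells of a type and less RNA per cell.

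**Figure D4:**
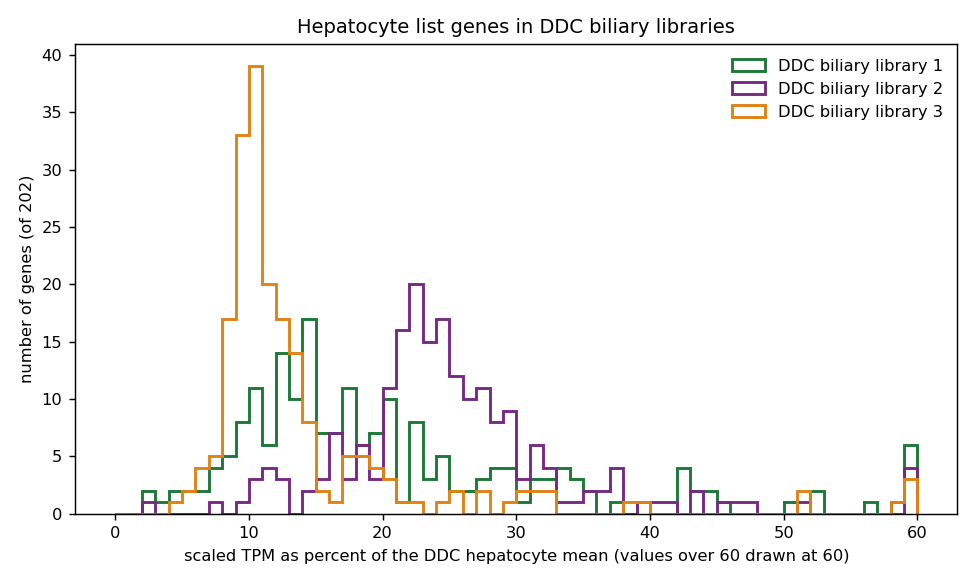
Number of the 202 hepatocyte list genes (y axis) at each level in the 3 DDC biliary libraries, as percent of the DDC hepatocyte mean (x axis, values over 60 drawn at 60). Each library has 1 main peak, with medians of 17.2%, 24.1% and 11.01%.

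Among the remaining genes of largest difference, the secreted protein Wfdc18 was at 232, 236 and 250.2 against 0.598, 0.2302 and 0.8899, the scavenger receptor Scara3 at 347, 299 and 357 against 1.31, 1.398 and 1.12 and the GABA receptor subunit Gabrp at 179.8, 119 and 186 against 0.446, 0.0224 and 0.281. The collectin Sftpd (6.84) and mesothelin, Msln (6.50), completed the protein-coding genes of that set. On the hepatocyte side were Fxyd1, a regulator of the sodium pump, at 96.8, 109 and 38.1 against 594, 547 and 641, the retinol dehydrogenase family gene Rdh16f2 (-2.94), Gltpd2 (-2.90), the triglyceride regulator Apoa5 (-2.89) and the methyltransferase Gnmt (-2.88). Short RNA entries stood at the extremes. Mir7005 was at 307, 650.2 and 281 in biliary cells and listed at 0 in all 3 hepatocyte libraries, and Snord118 was listed at 0 in all 3 biliary libraries and at 73.2, 96.6 and 105 in hepatocytes. Clu, the chaperone clusterin, was the third most abundant biliary entry, at 14119, 8391 and 10450.4 against 6449, 2483 and 3959.6 (1.43 ± 0.37, adjusted p = 0.00466), a call lost with only the compared groups in the fit (adjusted p = 0.0529). Mir6236 was lower in biliary cells (-1.47 ± 0.48, adjusted p = 0.016), a call lost without biliary library 1 (adjusted p = 0.055) and a difference of 0.29 under quantile normalization.

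The same comparison in untreated mice, which shares no library with this one, called 2999 genes higher (21.6%) and 2173 lower (15.6%). Of the genes called higher, 2122 were higher in both, 75.5% of the DDC calls and 70.8% of the untreated calls. Of those lower, 1650 were lower in both, 82.5% of the DDC calls and 75.9% of the untreated calls. The change in the cell type difference was tested as the DDC difference minus the untreated difference. It was called above 0 for 481 genes (3.46%) and below 0 for 687 genes (4.94%), and 3511 genes had an unadjusted p under 0.05. Untreated biliary cells had 596 of the 687 called higher, and DDC biliary cells 306. Of the 481, 360 were called higher in DDC biliary cells. No such change was called for the plasma protein, apolipoprotein, urea cycle, bile acid synthesis, P450 or respiratory chain lists.

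**Figure D5:**
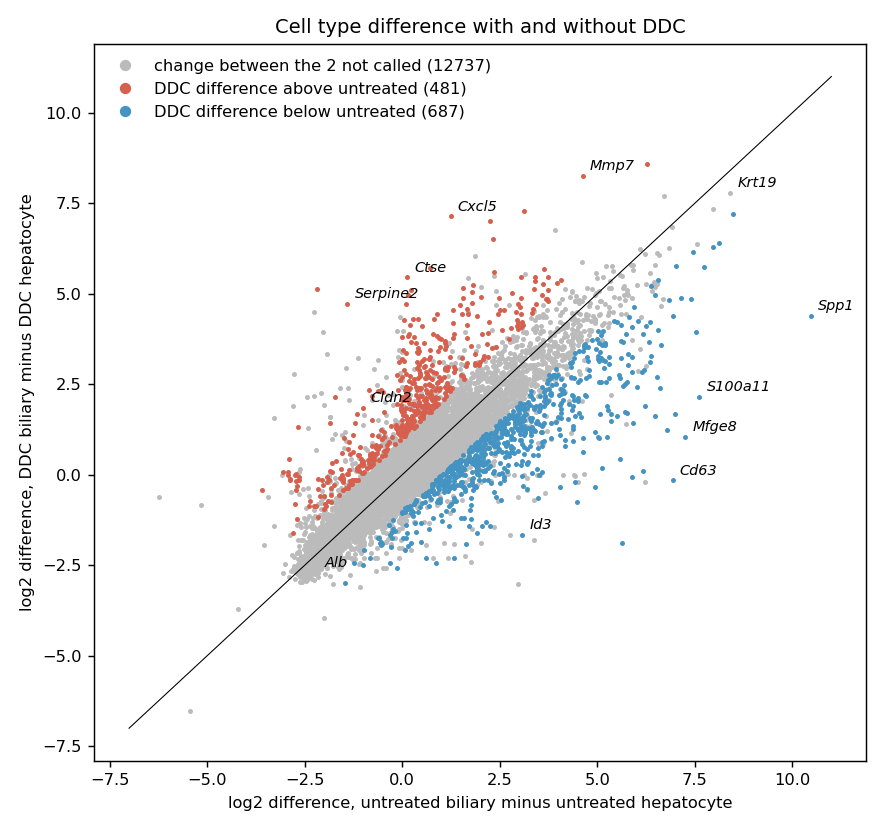
Log2 difference of biliary minus hepatocyte libraries under DDC (y axis) against the same in untreated mice (x axis) for 13905 genes, with the line of equality, 481 genes called above it in red and 687 called below it in blue. Cxcl5, Ctse and Serpine2 lie above the line and Spp1, Mfge8 and Cd63 below it.

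Several genes that untreated hepatocytes nearly lacked were present in DDC hepatocyte libraries, and their difference was smaller under DDC. The tetraspanin Cd63 (chr10:128896231-128912822) was at 1.39, 0.985 and 1.86 in untreated hepatocytes and 271, 284 and 318 in untreated biliary cells, and under DDC at 780.0, 290.5 and 425 in hepatocytes and 516, 336 and 401 in biliary cells. The DDC groups overlapped, and the change was -7.09 ± 0.43 (adjusted p = 9.41e-07). Spp1 was at 5.91, 8.27 and 4.201 in untreated hepatocytes against 440.4, 253 and 563 under DDC, while biliary means were 9856 ± 727 and 8630.3 ± 2521 (-6.08 ± 0.53, adjusted p = 1.56e-05). Mfge8, a bridge for the uptake of dying cells, was at 1.42, 1.36 and 2.16 in untreated and 265, 169 and 201 in DDC hepatocytes (-6.22 ± 0.25, adjusted p = 3.87e-08), and its call as higher under DDC (1.05) was lost without biliary library 2 (0.93) or hepatocyte library 2 (0.90). Anxa2 was at 0.357, 2.21 and 1.29 in untreated and 380.4, 86.1 and 234 in DDC hepatocytes (-5.56 ± 0.63, adjusted p = 0.000103), and its DDC call was lost without hepatocyte library 2 (0.64) or biliary library 1 (1.27, adjusted p = 0.0504) or 3 (1.15, adjusted p = 0.0755). S100a11 (-5.46), Prom1 (-5.32), Id1 (-5.96), Prelp (-5.27) and Tm4sf4 (-3.59) also had changes below 0. The duct marker Krt19 was at 0, 0.141 and 0.722 in untreated and 1.41, 1.64 and 1.45 in DDC hepatocytes, and Epcam at 0.221, 0.177 and 0.0890 in untreated and 1.92, 1.87 and 1.96 in DDC hepatocytes. The part of biliary RNA in these hepatocyte values was not tested. Msmp differed on the biliary side, at 87.6, 105 and 39.6 in untreated and 0.301, 0.0848 and 0 in DDC biliary cells.

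Other genes had a larger difference under DDC, with higher levels in DDC than in untreated biliary cells. Cxcl5 was at 2.68, 1.41 and 0.766 in untreated biliary cells, far under its DDC values given above, with a change of 5.91 ± 0.49 (adjusted p = 1.1e-05). The cathepsin Ctse was at 0.167, 0.153 and 0.112 in untreated and 37.3, 38.4 and 75.5 in DDC biliary cells (5.32 ± 0.39, adjusted p = 3.97e-06), and was at most 0.189 in any hepatocyte library of either treatment. Plau (4.89), Ltbp2 (4.82), Tnf (3.55), Cxcl2 (3.90) and Ccl20 (4.63) were not called in untreated mice and differed under DDC. Cdkn2a was at 0.0574, 0 and 0.1396 against 13.2, 6.86 and 10.8 (3.27 ± 0.30, adjusted p = 2.05e-05). In the chemokine list the change was called above 0 for 6 genes and below 0 for 1 (Lcn2), and in the immediate early list above 0 for 0 and below 0 for 11.

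A small group was called in opposite directions, 8 genes higher under DDC and lower in untreated biliary cells, and 14 the reverse. Serpine2, a protease inhibitor, was at 4.32, 5.73 and 2.97 against 13.7, 19.2 and 7.95 in untreated mice, where hepatocytes were higher, and at 39.9, 44.7 and 45.8 against 0.261, 0.526 and 1.45 under DDC (6.13 ± 0.43, adjusted p = 2.98e-06). Cldn2 moved the same way, from 45.6 ± 2.45 against 94.3 ± 21.9 to 263 ± 19.95 against 73.6 ± 18.1 (2.86 ± 0.29, adjusted p = 3.99e-05). Ddit4, an inhibitor of mTOR signalling, went from 38.7, 32.6 and 55.9 against 114, 119 and 193 to 88.3, 145 and 162 against 15.3, 67.5 and 20.4 (3.87 ± 0.65). Id3, an inhibitor of helix-loop-helix factors, was the reverse, at 189, 121 and 187 against 20.5, 21.5 and 14.1 in untreated mice and 87.98, 81.9 and 66.7 against 137, 265 and 424 under DDC (-4.73 ± 0.51, adjusted p = 6.75e-05), where its DDC call was lost on both other scalings (-0.56 in TPM as deposited and -0.86 under quantile normalization). Atoh8 (-3.55) and Ifi27l2b (-3.63) followed Id3, and Tnfaip2 (2.84) followed Serpine2. Cybb, the NADPH oxidase subunit of phagocytes, overlapped under DDC, at 19.01, 4.96 and 4.83 against 88.1, 15.3 and 12.5. Its DDC call (-1.61) was lost without hepatocyte library 1 (-0.75) or biliary libraries 2 (-1.32) or 3 (-1.31), and its change of -3.53 was lost without biliary library 2 (-3.24, adjusted p = 0.0539) or 3 (-3.23, adjusted p = 0.0563). Its value was highest in hepatocyte library 1. Macrophage markers differed in their order among the hepatocyte libraries. Cd68 was highest in library 1, at 31.5, 5.71 and 6.43. Marco (0.271, 1.25 and 1.55), Vsig4 (0.298, 1.49 and 1.05), Cd5l and Clec4f were lowest in library 1. Adgre1, Csf1r and C1qa were highest in library 3. The part of macrophages in the Cybb values was not tested.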

How the data were processed

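RNA of sorted liver cells was extracted with the Qiagen RNeasy micro kit per the labels' protocols. The deposited table holds gene TPM that the authors made with Salmon on mm10, per the submitters' processing notes, and the Salmon version was not given in the sources used here. TPM is relative to each library's total, so 1 abundant entry moves all others, and it keeps no read depth. Samples were grouped by title. The filter kept genes with a TPM of at least 1 in at least 3 columns. Scale factors were medians of ratios over the 11924 kept genes above 0 in all 15 libraries. Log2(scaled TPM + 1) was fitted with limma 3.58.1 in R 4.3.3 with a mean-variance trend over 5 groups of 3 libraries (10 residual degrees of freedom), and p-values were adjusted by Benjamini-Hochberg over 13905 genes. The call rule was an adjusted p below 0.05 together with a log2 difference of 1 or more in size. Figures used matplotlib 3.10.9 in Python 3.11.15 with pandas 2.3.3.

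Named genes were the 12 largest non-overlapping calls each way whose higher group averaged 10 scaled TPM or more, and in each list the 5 called members of largest difference, the 2 largest in the minority direction and the most abundant. Further named genes were the 6 most abundant of each group, the 10 largest changes against untreated mice in each direction, the 8 largest called in opposite directions, the 8 largest called under DDC alone with a called change, and cell type markers. Only those that serve a comparison are printed, and some withheld items are not reported here. Abcc4, Ccl2, Csf1, Glul, Krt18, Slc22a7, Slc4a2, Tm4sf4 and Yap1 were chosen after their values were seen. The comparison, the gene lists and the tests were chosen with earlier results of these data known. The fit was tested on simulated data of 13905 genes, where it called 93 of 100 genes simulated with a log2 difference of 2 and 96 of 100 with one of 3 between the DDC groups, with 3 false calls. For the change against untreated mice it called 76 of 100 and 96 of 100, with 2 false calls. In these simulations no other gene differed, and noise was normal and independent, with a spread per gene shared by all groups. Values were simulated after scaling, so errors from the scaling, or from a spread that differs between groups, are not covered. Promoter windows came from RefSeq on GRCm38.p6, the assembly behind mm10. Alternatives covered the scaling, the pseudocount, the filter, the call rule, limma settings, the fitted groups, the replicate number as a block, protein-coding genes alone and each replicate left out. No batch or date was given in the labels.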

Additional observations from a re-analysis of the deposited data

Results flagged for a closer look

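The change in the cell type difference between DDC and untreated mice, tested as an interaction in limma, was called above 0 for 481 genes and below 0 for 687. The following results were singled out because that change was called.

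Among epithelial and matrix genes the change in the log2 difference was 6.13 for Serpine2, 4.89 for Plau, 4.82 for Ltbp2, 4.75 for Gabrp, 2.86 for Cldn2 and 5.32 for Ctse. All 6 lay above 0, and for Serpine2 and Cldn2 hepatocytes were the higher group in untreated mice.

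Among inflammatory genes it was 5.91 for Cxcl5, 4.63 for Ccl20, 3.90 for Cxcl2, 3.55 for Tnf and 2.84 for Tnfaip2, and for the stress gene Ddit4 it was 3.87.

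Changes below 0 were -7.09 for Cd63, -6.22 for Mfge8, -6.08 for Spp1, -6.07 for Msmp, -5.96 for Id1, -5.56 for Anxa2, -5.46 for S100a11, -5.32 for Prom1, -5.27 for Prelp and -4.73 for Id3. Ifi27l2b (-3.63), Atoh8 (-3.55) and Cybb (-3.53) were below 0 as well, and of the genes singled out Cybb alone lost its call in the runs that left out 1 DDC library, and also in TPM as deposited, under quantile normalization and with a pseudocount of 5.

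The small nucleolar RNA entries Snora43 (7.32) and Snord95 (-7.52) had the largest changes in each direction among these genes. Snora43 was listed at 19.5, 29.4 and 68.6 in DDC biliary and 0, 0 and 0 in DDC hepatocyte libraries, and at 0, 7.17 and 58.9 and 35.2, 42.1 and 28.3 in the untreated groups. Snord95 was listed at 38.6, 43.5 and 11.3 and 214, 35.3 and 136 under DDC and at 40.6, 53.1 and 54.5 and 0, 0 and 0 in untreated mice.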

How the results depend on the processing

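The number of genes called higher in DDC biliary cells, 2811 here, was 7142 in TPM as deposited, 1407 with a pseudocount of 5 and 5089 with the adjusted p alone. The 1999 called lower became 645 in TPM as deposited and 4006 with the adjusted p alone. In TPM as deposited 2811 of the higher and 645 of the lower genes were shared with the calls above. The change against untreated mice, 481 above and 687 below 0, became 260 and 322 with a pseudocount of 5, and 777 above 0 with the adjusted p alone. All other alternatives kept these 4 counts within 1.5 times. Of the higher and lower calls under quantile normalization, 1673 of 1918 and 1471 of 2216 were among those above. The share of calls higher in biliary cells was 46.5% with a pseudocount of 5. Differences reversed in TPM as deposited for Id1 (1.02) and Nr2f6 (0.0021), and under quantile normalization for C3 (0.45), Gapdh (0.032), Krt8 (1.29) and Mir6236 (0.29). Without 1 library at a time the counts ran from 2692 to 2989 higher, 1842 to 2131 lower, 402 to 525 above 0 and 557 to 729 below 0, and 270 of 295 named calls held in all 6 runs. With the replicate number as a block the counts were 2839, 2060, 572 and 826. Of the named genes, 3 gained a call in that fit, among them Mup20 (-2.60, adjusted p = 0.000261) and Dcn (1.54, adjusted p = 0.00463), and Mir6236 lost its call (adjusted p = 0.0542). Deviations of same-numbered DDC libraries correlated at 0.318, 0.319 and 0.0436, so the numbers did not pair the samples by the rule used, though each biliary library correlated best with its own number, a hint from the data and not the design. For untreated libraries of the same number the correlations were 0.150, 0.171 and 0.236, each above 0.1 and the highest of its biliary library. The main fits, that of the change against untreated mice included, used no pairing for either treatment. Protein-coding genes alone, an alternative chosen after seeing the data, gave 2748, 1942, 464 and 695. The cause of each move was not tested. Depth is unknown, so levels near 1 TPM carry an unknown counting error, and 3 libraries per group limit the precision of every value.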
